A study of Rattus norvegicus with 9 samples.

Results

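The piRNA pathway and the germ granules were followed through 8 genes, Piwil1, Piwil2, Mov10l1, Ddx4, Mael, Gpat2, Tdrd1 and Tdrd7, which were chosen by name. They were read by 9 of the 41012 probes of the array, 2 of them for Piwil2, and all 9 probes passed the filter on dim signals that left 22445 genes for testing. The samples were cultures of Sertoli cells, the somatic nurse cells of the seminiferous tubule, from rat testes at 3 ages (5, 12 and 60 days), and each age had 3 samples. After 4 days in a defined medium the cells of every sample were given testosterone (1e-07 M) together with oFSH (50 ng/ml) in pulses over 11 h, so no sample was untreated. Whether the 3 replicates of an age came from separate animals or separate cultures is not stated in the labels, and p-values then measure only the spread between these samples, which may be technical.

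piRNAs are small RNAs of the germ line that guide Piwi proteins to transposon transcripts and other targets. Their precursors are cut and loaded in germ granules, dense bodies of RNA and protein beside the mitochondria and the nucleus (the intermitochondrial cement of spermatogonia and spermatocytes, the chromatoid body of spermatids), whose Tudor-domain proteins bind the methylated tails of Piwi proteins. In the testis the pathway is known from germ cells, where different Piwi proteins work at different stages of spermatogenesis.

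Each level is the log2 of the processed signal of a probe minus the log2 of the 75th percentile of its array, so that 0 stands for a signal at that percentile. A signal counted as measured where the scanner software called it well above background, which happened for 49.1% to 63.0% of probes on an array. Levels of different probes are not compared with each other, because each probe has its own efficiency. A gene was said to have risen or fallen where the adjusted p of the limma fit over all genes tested was under 0.05. Where no array of the younger age was well above background, the change is given as a lower bound, written as at least N-fold, from the lowest measurable signal of those arrays to the mean of the older age. At 12 against 5 days 12.4% of all genes tested were called (6.08% higher and 6.35% lower), at 60 against 12 days 25.3% (12.3% higher and 13% lower) and at 60 against 5 days 35.3% (17.2% higher and 18.1% lower). The 3 comparisons share their ages and are not independent of each other.

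The probes on which the findings turn are shown here because each level rests on the stretch of transcript that one 60-base probe detects. Positions are in the rn4 build, as the array files give them. Whether a probe lies in an exon or an untranslated region of that build is not given, since its annotation was not used here. The second Piwil2 probe is shown because it was below background at 5 and 12 days, where the first was not. The Piwil1 and second Piwil2 matches are interrupted on the genome, covering 1595 and 1466 bases.
Piwil1, probe A_44_P555309, minus strand of chr12:29017290-29018884: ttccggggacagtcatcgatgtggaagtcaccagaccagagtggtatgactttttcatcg
Piwil2, first probe A_44_P654933, minus strand of chr15:50757923-50757982: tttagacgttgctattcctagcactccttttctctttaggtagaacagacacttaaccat
Piwil2, second probe A_44_P541259, minus strand of chr15:50780596-50782061: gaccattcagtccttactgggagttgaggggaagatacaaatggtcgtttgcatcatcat
Ddx4, probe A_42_P641569, minus strand of chr2:43967563-43967622: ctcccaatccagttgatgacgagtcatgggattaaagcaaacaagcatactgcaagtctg
The other probes lie at chr7:127293783-127296364 on the plus strand for Mov10l1 (A_44_P375584, over 2582 bases), chr13:81935390-81935449 on the minus strand for Mael (A_44_P100476), chr3:114939077-114939136 on the plus strand for Gpat2 (A_44_P1034579), chr1:263168655-263168714 on the plus strand for Tdrd1 (A_44_P457028) and chr5:62564849-62567917 on the plus strand for Tdrd7 (A_44_P264381, over 3069 bases).

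Sertoli and germ cell markers were both measured on every array, the germ cell genes in numbers that differed with age. Of 19 Sertoli genes, 16 to 18 were well above background on each array at 5 days, 17 to 19 at 12 days and all 19 at 60 days, and the array medians of the list lay at -0.66 to -0.39, 1.53 to 1.78 and 2.78 to 3.50. Of 9 spermatogonial genes, 4 to 8 were well above background on an array at 5 days, 6 to 8 at 12 days and all 9 at 60 days. Of 18 spermatocyte genes, 2 to 5 were well above background on an array at 5 days, 12 to 16 at 12 days and 17 to 18 at 60 days. Of 17 spermatid genes, 1 to 3 were well above background at 5 and at 12 days and 16 to 17 at 60 days. In such bulk samples, fewer cells of a type and less RNA per cell cannot be told apart.

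Every value of the 8 genes at 60 days lay above every value of the same gene at 12 and at 5 days. How many of all genes tested were separated in this way was not counted. Of the 8, 6 rose at 12 against 5 days, where 6.08% of all genes tested did. At 60 against 12 days all 8 rose (12.3% of all genes tested), and at 60 against 5 days all 8 rose (17.2%). The limma F-test over the 3 ages called all 8, and 36.6% of all genes tested. The median fitted change of the 8 was 2.38 at 12 against 5 days, 3.29 at 60 against 12 days and 5.73 at 60 against 5 days on the log2 scale, beside 0.04, -0.16 and -0.09 over all genes tested. With changes from below background set to their bounds, and those with no size set to 0, the medians of the 8 were 1.50, 3.29 and 4.74. Of the 8, Piwil1 and Tdrd1 passed the filter only through the 60-day arrays, so their place among the tested genes already required a high value at that age. On the scale of the spike-in controls the median of all genes moved by -1.28 at 12 against 5 days, 0.94 at 60 against 12 days and -0.34 at 60 against 5 days, and 3, 8 and 7 of the 8 were then called, all of them higher. Normexp background correction, which adds an offset of 50 to every signal and was run on replicates 1 and 3, called 0, 0 and 2 of the 8 with all probes, and 2, 7 and 8 of the 8 without the probes of extreme local background.

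**Figure D1:**
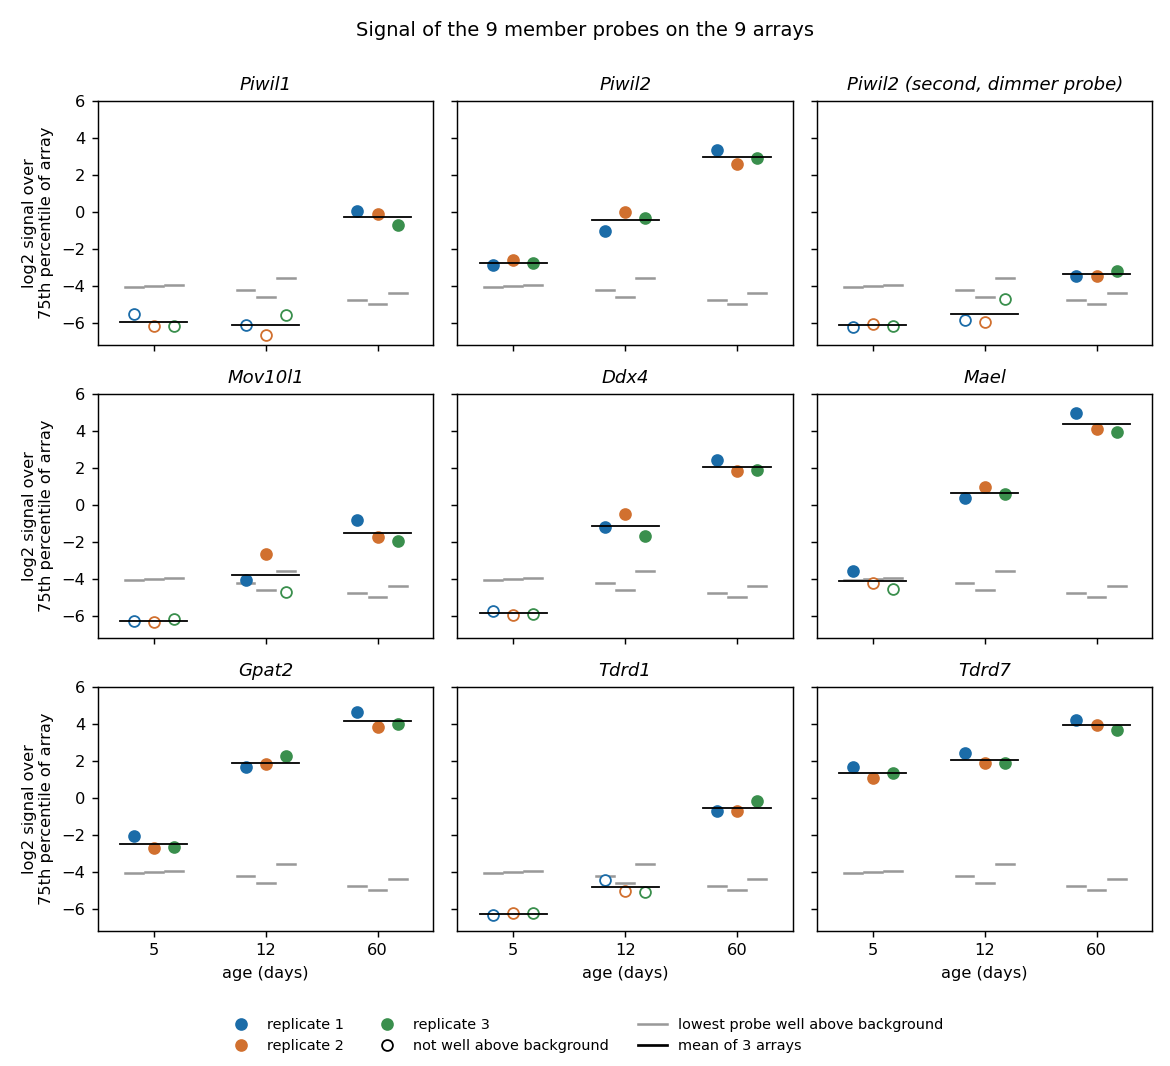
Level of each of the 9 probes on each of the 9 arrays, as log2 signal over the 75th percentile of the array (vertical axis) by age in days (horizontal axis), with a colour for each replicate, open points where the signal was not well above background, grey dashes for the lowest measurable signal of each array and black lines for means of 3 arrays. In each panel the 3 points at 60 days lie above all points at 5 and 12 days, Piwil1 is open at 5 and 12 days, and Tdrd7 is measured on all 9 arrays.

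The Piwi proteins are the effectors of the pathway. Piwil1 and Piwil2 both had their highest levels at 60 days. Piwil1, called MIWI in the mouse, carries the piRNAs of pachytene spermatocytes and round spermatids. Its level was -5.53, -6.18 and -6.20 on the 3 arrays at 5 days, -6.11, -6.67 and -5.59 at 12 days and 0.04, -0.10 and -0.69 at 60 days. None of the 6 younger arrays was well above background, and the groups at 12 and 5 days overlapped. At 60 days Piwil1 was at least 14.8-fold higher than at 12 days (adjusted p = 5.19e-06) and at least 13.6-fold higher than at 5 days (adjusted p = 1.94e-06), while no size can be given for 12 against 5 days (adjusted p = 0.886).

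Piwil2, called MILI in the mouse, works earlier in germ cell life and is made from fetal germ cells and spermatogonia onward. Its first probe read -2.88, -2.60 and -2.79 at 5 days, -1.04, 0.01 and -0.32 at 12 days and 3.33, 2.61 and 2.94 at 60 days. All 9 values were well above background and the 3 ages did not overlap. It rose by 2.30 ± 0.36 (log2 fold change ± SE) at 12 against 5 days (adjusted p = 0.00195), by 3.41 ± 0.36 at 60 against 12 days (adjusted p = 7.18e-05) and by 5.71 ± 0.36 at 60 against 5 days (adjusted p = 1.34e-06). The call at 12 against 5 days was lost on the spike-in scale (1.03, adjusted p = 0.362) and without replicate 2 (adjusted p = 0.0534), and after normexp correction with all probes (0.52, adjusted p = 1) and without those of extreme local background (1.02, adjusted p = 0.195).

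The second Piwil2 probe was above background at 60 days only. It read -6.21, -6.08 and -6.15 at 5 days, -5.85, -5.95 and -4.73 at 12 days and -3.48, -3.47 and -3.20 at 60 days. Tested among all probes it rose, by at least 1.68-fold at 60 against 12 days (adjusted p = 0.00181) and at least 1.55-fold at 60 against 5 days (adjusted p = 0.000182). At 12 against 5 days, where both ages were below background, it was not called (adjusted p = 0.361). Both probes thus had their highest values at 60 days, and the early Piwil2 signal at 5 and 12 days rests on the first probe alone.

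Piwil1 and Piwil2 were also set against each other within each array, by the change of their difference between ages, which leaves out what is particular to each probe as long as both are measured. Piwil1 was below background on all 6 younger arrays, so these values carry no size for it. Piwil1 minus Piwil2 changed by -2.46 at 12 against 5 days and by 2.46 at 60 against 12 days on the log2 scale (exact two-sided permutation p = 0.1 for each, the smallest that 3 against 3 arrays allow), and by 0.00 at 60 against 5 days (exact p = 1). With Piwil1 held at the lowest measurable signal where it was below background, the changes were -2.42 (exact p = 0.1), 0.47 (exact p = 0.6) and -1.95 (exact p = 0.1). No difference between the Piwi genes was shown, since none of these p-values can pass the threshold.

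Mov10l1 encodes the RNA helicase that, in the mouse, hands piRNA precursors to the processing machinery. Its level was -6.30, -6.34 and -6.20 at 5 days, -4.09, -2.65 and -4.71 at 12 days and -0.82, -1.74 and -1.96 at 60 days. It was below background in every 5-day sample and measured in 2 of 3 samples aged 12 days. Against 5 days, its 12-day level was at least 1.14-fold higher (adjusted p = 0.00939). At 60 days it was 2.31 ± 0.51 higher than at 12 days on the log2 scale (adjusted p = 0.00685) and at least 5.69-fold higher than at 5 days (adjusted p = 3.37e-05). Its 12-day values were the most spread of the 8 genes (SD 1.05, n = 3). The call at 60 against 12 days was lost without replicate 1 (1.83, adjusted p = 0.11), and that at 12 against 5 days on the spike-in scale (adjusted p = 0.308), without replicate 1 (0.078) and without replicate 2 (0.121). Normexp correction ended both calls, with changes of 0.71 with all probes and 0.78 without those of extreme local background at 60 against 12 days (adjusted p = 1 and 0.22), and of 0.27 and 0.39 at 12 against 5 days (adjusted p = 1 and 0.844).

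Ddx4, the vertebrate Vasa, is a DEAD-box RNA helicase used as a general marker of germ cells and a core part of germ granules. It read -5.74, -5.98 and -5.91 at 5 days, -1.19, -0.50 and -1.68 at 12 days and 2.43, 1.81 and 1.88 at 60 days. It was below background on all 5-day arrays and measured on all others, and the 3 ages lay apart. Ddx4 was at least 7.41-fold higher at 12 than at 5 days (adjusted p = 4.20e-05), rose by 3.16 ± 0.37 at 60 against 12 days (adjusted p = 0.000126) and was at least 66.4-fold higher at 60 than at 5 days (adjusted p = 3.94e-07). The bounds are those of the 75th percentile scale. After normexp correction of replicates 1 and 3, the call at 12 against 5 days was lost with all probes (0.69, adjusted p = 1) and without those of extreme local background (1.03, adjusted p = 0.184). Another probe, A_44_P276673, which the files name LOC688622 and describe as similar to a VASA homolog, falls outside the chosen names and was not well above background on any of the 9 arrays.

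Mael encodes maelstrom, a protein with an HMG box that is needed to silence transposons in germ cells. Its level was -3.57, -4.21 and -4.56 at 5 days, 0.36, 0.98 and 0.59 at 12 days and 5.00, 4.12 and 3.94 at 60 days. Of the 5-day arrays 1 was above background, as were all arrays of the other ages. Mael rose by 4.76 ± 0.40 at 12 against 5 days (adjusted p = 5.72e-05) and by 8.46 ± 0.40 at 60 against 5 days (adjusted p = 4.25e-07), sizes that rest in part on the 2 5-day signals below background. At 60 against 12 days it rose by 3.71 ± 0.40 (adjusted p = 7.98e-05).

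Gpat2 encodes a testis protein of the mitochondrial outer membrane, related to glycerol-phosphate acyltransferases, that has been tied to Piwi proteins and the making of piRNAs in the mouse. It read -2.08, -2.71 and -2.65 at 5 days, 1.66, 1.83 and 2.24 at 12 days and 4.66, 3.82 and 4.00 at 60 days, all well above background. The rise was 4.39 ± 0.36 at 12 against 5 days (adjusted p = 4.93e-05), 2.25 ± 0.36 at 60 against 12 days (adjusted p = 0.000891) and 6.64 ± 0.36 at 60 against 5 days (adjusted p = 6.36e-07). On the spike-in scale the changes were 3.11 at 12 against 5 days and 3.19 at 60 against 12 days, so which of the steps was larger depended on the scale.

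Tdrd1 and Tdrd7 encode Tudor-domain scaffolds of the granules. In the mouse, Tdrd1 binds the Piwil2 protein in the intermitochondrial cement. Tdrd1 read -6.37, -6.23 and -6.26 at 5 days, -4.42, -5.05 and -5.08 at 12 days and -0.71, -0.71 and -0.19 at 60 days. It was not well above background on any of the 6 younger arrays, although the fit called it at 12 against 5 days (adjusted p = 0.0147), so it is 1 of the 6 genes called there but has no size. At 60 days it was at least 12.1-fold higher than at 12 days (adjusted p = 9.67e-06) and at least 11.1-fold higher than at 5 days (adjusted p = 7.99e-07). Its call at 12 against 5 days was lost on the spike-in scale (adjusted p = 0.887) and without replicate 1 (0.114), 2 (0.14) or 3 (0.0743), as well as after normexp correction (adjusted p = 1 with all probes and 0.794 without those of extreme local background).

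Tdrd7 shapes the chromatoid body in the mouse and also acts outside the germ line, in the lens. It was the only one of the 8 with a positive level on all 9 arrays, 1.67, 1.05 and 1.36 at 5 days, 2.42, 1.87 and 1.86 at 12 days and 4.19, 3.96 and 3.65 at 60 days. Its change at 12 against 5 days, 0.69 ± 0.33, was not called (adjusted p = 0.239), although the 3 values at 12 days all lay above those at 5 days. It rose by 1.88 ± 0.33 at 60 against 12 days (adjusted p = 0.0018) and by 2.57 ± 0.33 at 60 against 5 days (adjusted p = 0.000125). On the spike-in scale the change at 12 against 5 days turned to -0.59 without a call, and that at 60 against 5 days missed the threshold (2.23, adjusted p = 0.0522). The call at 60 against 12 days was lost without replicate 2 (1.77, adjusted p = 0.0527).

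**Figure D2:**
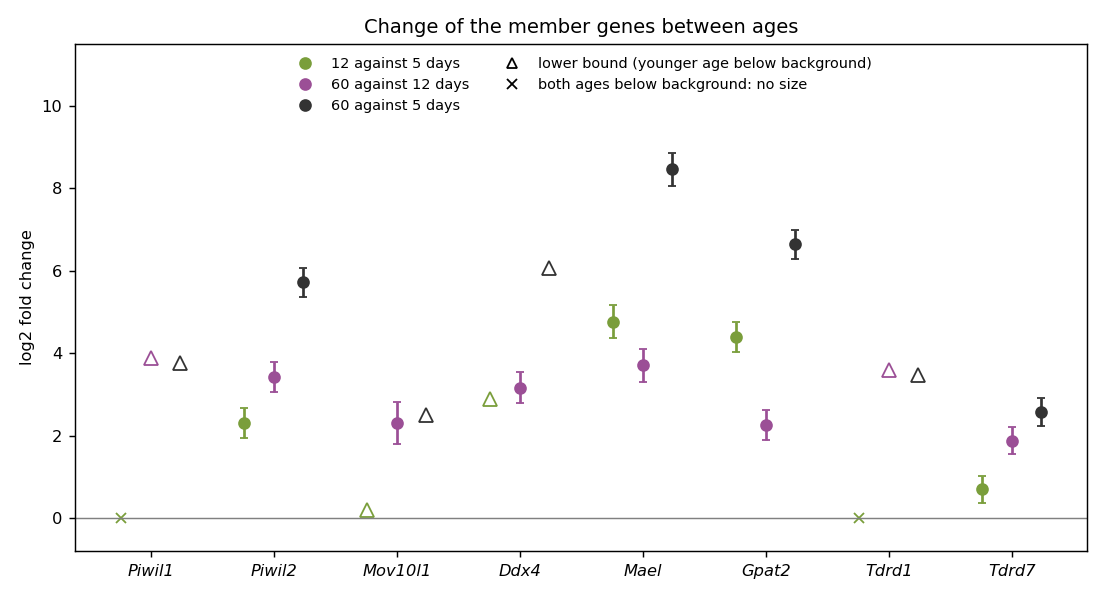
Log2 fold change of each gene (vertical axis, points with SE from the limma fit, n = 3 arrays an age) at 12 against 5 days, 60 against 12 days and 60 against 5 days, with open triangles for lower bounds and crosses where both ages were below background. At 60 against 5 days Gpat2 lies at 6.64, Tdrd7 at 2.57 and Mael at 8.46, with 2 of its 3 signals at 5 days below background, and Piwil1 and Tdrd1 have no size at 12 against 5 days.

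Arrays of 1 replicate number shared a slide that held all 3 ages, so the changes can be read within slides. At 60 against 12 days and at 60 against 5 days all 8 genes were higher on 3 of 3 slides, with differences of 0.92 (Mov10l1) to 6.58 (Piwil1) and of 2.29 (Tdrd7) to 8.56 (Mael). In the earlier comparison, 12 against 5 days, 7 genes were higher on 3 of 3 slides and Piwil1 on 1 of 3. The share of all genes tested that was higher on 3 of 3 slides was not counted. On the spike-in scale the comparison of 12 against 5 days was less even. Ddx4, Mael and Gpat2 were then higher on 3 of 3 slides, Piwil2 and Mov10l1 on 2, Tdrd1 and Tdrd7 on 1 and Piwil1 on none, whereas in the other comparisons all 8 genes stayed higher on 3 of 3.

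**Figure D3:**
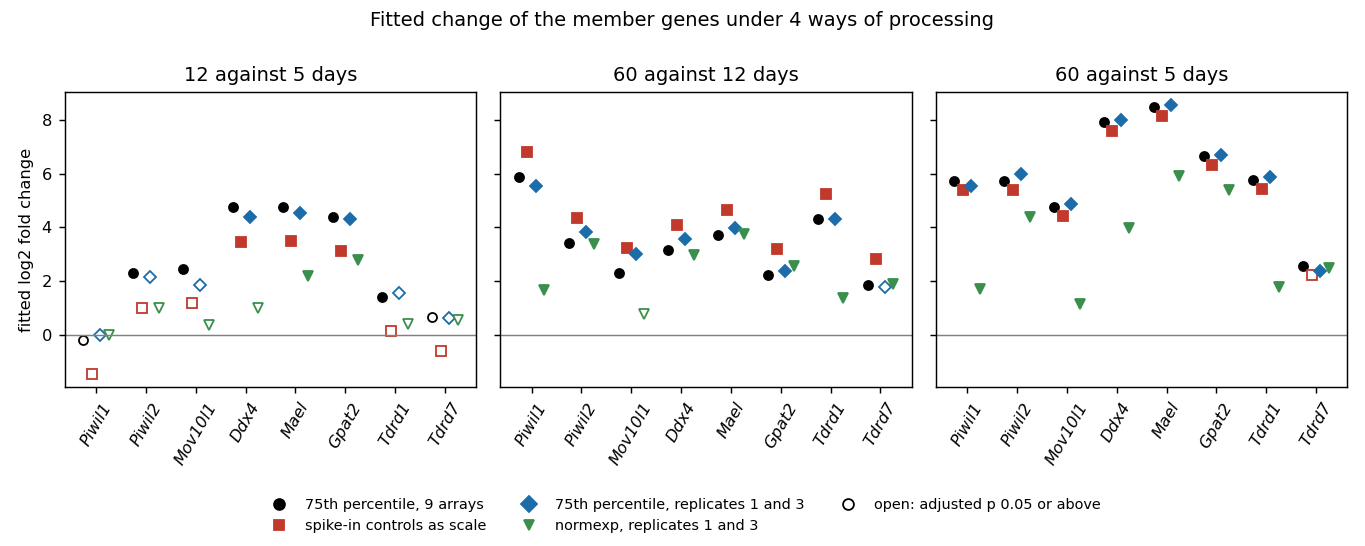
Fitted log2 fold change of the 8 genes (vertical axis) in the 3 comparisons, with the values scaled to the 75th percentile, to the spike-in controls, to the 75th percentile on replicates 1 and 3, and after normexp background correction of replicates 1 and 3 without the probes of extreme local background; filled symbols have an adjusted p under 0.05. At 60 against 5 days every symbol lies above 0 and only Tdrd7 on the spike-in scale (2.23) is open, whereas at 12 against 5 days only Mael and Gpat2 are filled under all 4.

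Further genes of the pathway were described in the same way. Over all genes tested, 6.08%, 12.3% and 17.2% rose at 12 against 5, 60 against 12 and 60 against 5 days. Of 30 further genes of piRNA biogenesis and action, 23 were on the array under a known name and 19 passed the filter, 6 of them through the 60-day arrays alone. At 12 against 5 days 9 of the 19 rose and none fell, at 60 against 12 days 12 rose and none fell, and at 60 against 5 days 16 rose and none fell by limma, with 0 falls at an unadjusted p under 0.05 in each of the 3. Their median changes were 1.09, 2.17 and 3.05, or 0.43, 1.05 and 1.75 with changes from below background at their bounds. When the spike-in controls set the scale, 3, 11 and 11 of the 19 rose and the median at 12 against 5 days turned to -0.19.

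The list holds further Tudor proteins of the granules. Tdrd6, a chromatoid body protein of spermatids, was below background at 5 and 12 days and at least 56.1-fold higher at 60 than at 12 days (adjusted p = 3.83e-06). Tdrd9, a helicase with a Tudor domain, was at least 1.30-fold higher at 12 than at 5 days (adjusted p = 0.00889) and rose by 4.00 ± 0.51 at 60 against 12 days (adjusted p = 0.000237). Tdrd5, which builds the chromatoid body, rose by 2.94 ± 0.59 at 12 against 5 days and by 2.53 ± 0.59 at 60 against 12 days. Stk31, a Tudor protein with a kinase domain, was at least 7.60-fold higher at 12 than at 5 days and at least 52.8-fold higher at 60 than at 5 days.

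The list also holds genes without a Tudor domain. Fkbp6, a co-chaperone that works with Hsp90 in the pathway and also at meiotic chromosomes, rose by 3.83 ± 0.34 at 12 against 5 days (adjusted p = 8.04e-05) and by 2.17 ± 0.34 at 60 against 12 days (adjusted p = 0.000896). Asz1, a mitochondrial anchor of the granules, was at least 2.18-fold higher at 12 than at 5 days (adjusted p = 0.001) and rose by 2.59 ± 0.45 at 60 against 12 days (adjusted p = 0.00165). The 3 genes not called at 60 against 5 days, named here after their values were seen, were Piwil4 (0.78 ± 0.53, adjusted p = 0.289), the third Piwi gene, and Prmt5 (0.21 ± 0.42, adjusted p = 0.742) and Wdr77 (-0.15 ± 0.48, adjusted p = 0.836), which form the arginine methyltransferase complex that marks Piwi tails and many proteins of other cells. The Piwil4 levels spanned -5.04 to -2.96 at 5 days, -3.56 to -2.87 at 12 days and -3.22 to -2.71 at 60 days, so the 3 ages overlapped.

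The next list holds RNA-binding proteins of the granules. Of 24 listed, 20 were on the array and 18 passed the filter, 4 of them through the 60-day arrays alone. At 12 against 5 days 2 rose and none fell by limma (1 lower at an unadjusted p under 0.05), at 60 against 12 days 8 rose and none fell (2 lower at an unadjusted p under 0.05), and at 60 against 5 days 9 rose and 1 fell, with medians of 0.27, 0.85 and 1.39 (0.15, 0.85 and 1.11 at the bounds). The share called at 12 against 5 days, 11.1%, was no higher than the 12.4% of all genes tested called in either direction. In the later comparisons 44.4% and 55.6% of the list were called, beside 25.3% and 35.3%. On the spike-in scale none rose and 1 fell at 12 against 5 days, with a median of -1.01, and 8 and 6 rose in the later comparisons. Adad1, a testis protein that binds double-stranded RNA, was at least 3.69-fold higher at 12 than at 5 days (adjusted p = 0.00056) and rose by 3.15 ± 0.47 at 60 against 12 days. Cpeb1, which controls poly(A) tails in the cytoplasm, was at least 2.29-fold higher at 12 than at 5 days (adjusted p = 0.0206).

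Another 4 of the named granule genes were called in both comparisons with 60 days and not at 12 against 5 days. Genes called at 60 against 5 days were named first, so their call in that comparison was set by the choice. The difference between the comparisons was not tested. Meioc, which acts at the entry to meiosis, rose by 3.50 ± 0.74 at 60 against 12 days (adjusted p = 0.00538), and Rbm46, which acts at the same step, by 2.07 ± 0.52 (adjusted p = 0.0131). Boll, of the DAZ family, was at least 3.60-fold higher at 60 than at 12 days (adjusted p = 0.00116), and Pabpc2, a poly(A)-binding protein, at least 5.03-fold higher (adjusted p = 0.000204). The 1 fall, named after its values were seen, was that of Snd1, a nuclease with a Tudor domain that is made in most cells (-1.17 ± 0.41 at 60 against 5 days, adjusted p = 0.0476), and on the spike-in scale the list had no fall in that comparison.

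Small RNA and decay genes that work in all cells were read on the same arrays, where 12.4%, 25.3% and 35.3% of all genes tested were called in either direction in the 3 comparisons. Of 14 microRNA pathway genes, 13 were on the array and 10 passed the filter. Of these, 1 rose at 12 against 5 days, at 60 against 12 days 2 fell, and at 60 against 5 days limma called none (1 at an unadjusted p under 0.05), with medians of 0.38, -0.20 and -0.03. Drosha, which cuts microRNA precursors in the nucleus, changed by -0.31 ± 0.33 at 60 against 5 days (adjusted p = 0.5), and Tarbp2, a partner of Dicer, by 0.72 ± 0.38 (adjusted p = 0.171). The called genes, named after their values were seen, were Tnrc6a, a partner of Argonaute proteins, which rose by 3.45 ± 0.63 at 12 against 5 days and fell by 3.73 at 60 against 12 days, and Ago1, an Argonaute protein, which fell by 1.46 at 60 against 12 days. Scaled to the spike-in controls, none rose at 12 against 5 days and 1 fell at 60 against 12 days, and the medians followed the shift of all genes to -0.89, 0.74 and -0.37.

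Of 14 genes of P-bodies and mRNA decay, 13 were on the array and 12 passed the filter. None was called by limma at 12 against 5 days (2 at an unadjusted p under 0.05), 1 rose at 60 against 12 days and 3 rose at 60 against 5 days, with medians of 0.44, 0.05 and 0.52. Xrn1, the main cytoplasmic exonuclease, rose by 1.59 ± 0.38 at 60 against 12 days (adjusted p = 0.0111) and by 2.19 ± 0.38 at 60 against 5 days (adjusted p = 0.00105). Cnot7, a deadenylase, rose by 1.09 ± 0.36 (adjusted p = 0.0358) and Dcp1b, a decapping cofactor, by 1.01 ± 0.35 (adjusted p = 0.0449) at 60 against 5 days. Ddx6, the helicase of P-bodies, was not called in that comparison (0.32 ± 0.38, adjusted p = 0.551). The 12 genes had, on the spike-in scale, no call at 12 against 5 or at 60 against 5 days, and the medians were -0.83, 0.99 and 0.18.

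**Figure D4:**
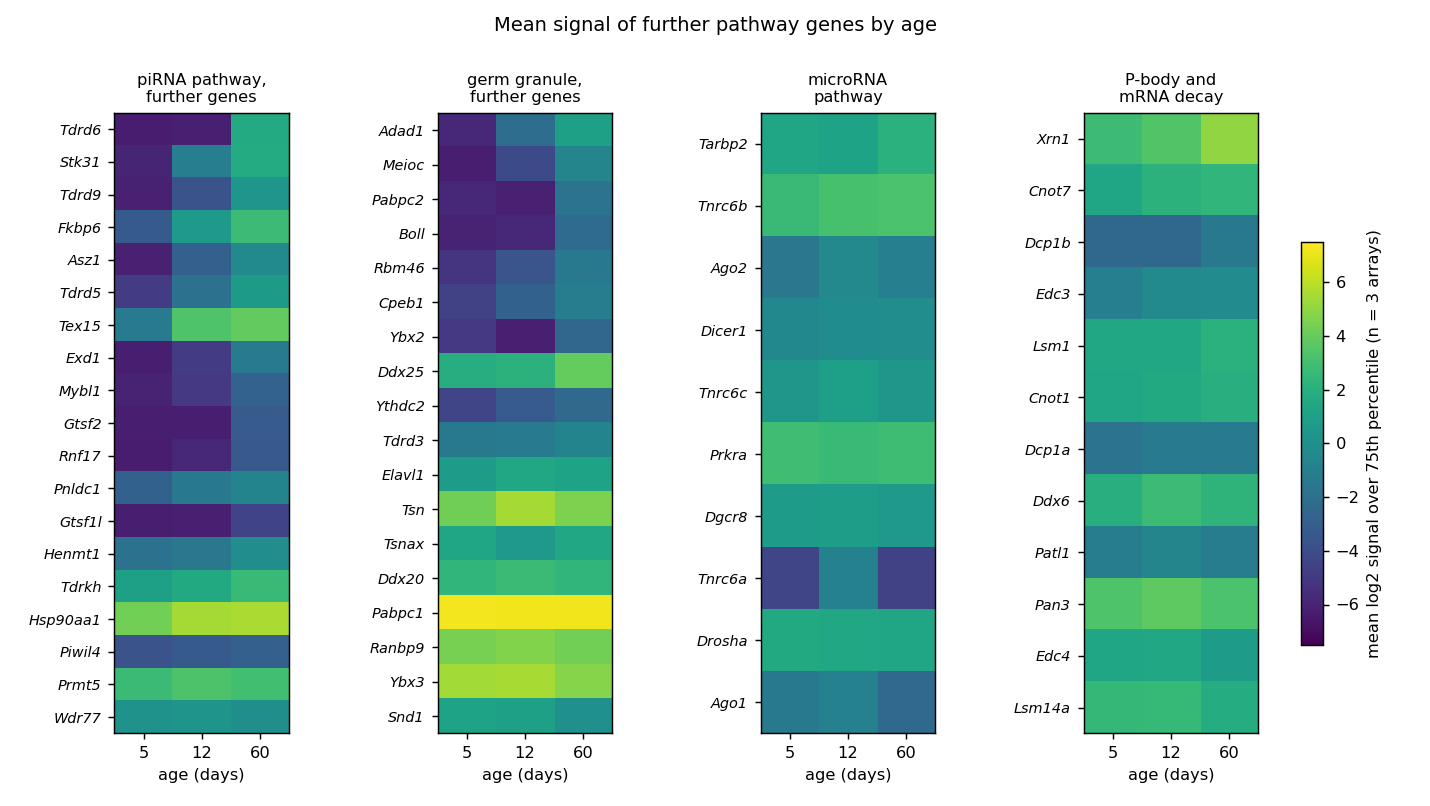
Mean level of further genes at each age (colour, log2 signal over the 75th percentile of the array, n = 3 arrays; columns are ages in days) in the lists of further piRNA genes, granule genes, microRNA genes and P-body genes, sorted by fitted change at 60 against 5 days. The upper rows of the first 2 lists are dark at 5 days and lighter at 60 days, such as Tdrd6, whose mean is -6.28 at 5 days and 1.68 at 60 days, while Drosha lies at 1.63 and 1.32.

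Germ cell markers also changed with age, and the spermatocyte, spermatid and spermatogonial lists are described in turn. Differences in timing between the lists were not tested. In the 3 comparisons 6.08%, 12.3% and 17.2% of all genes tested rose. All 18 spermatocyte genes on the array passed the filter, 4 of them through the 60-day arrays alone. At 12 against 5 days 12 of them rose and none fell by limma (0 lower at an unadjusted p under 0.05), at 60 against 12 days 17 rose, and at 60 against 5 days all 18 rose. Their array medians ran from -6.11 to -5.94 at 5 days, -2.18 to -1.55 at 12 days and 2.12 to 2.44 at 60 days, and those of the 8 genes from -5.23 to -4.55, -1.11 to -0.25 and 2.21 to 2.88. Sycp3 and Sycp1, parts of the synaptonemal complex, were at least 14.0-fold and at least 6.03-fold higher at 12 than at 5 days, Tex101, a surface protein of germ cells, at least 47.3-fold, and Ldhc, the lactate dehydrogenase of the testis, at least 2.48-fold. All 4 were below background on each 5-day array.

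Of 17 spermatid genes that passed the filter, 16 did so through the 60-day arrays alone, so their place among the tested genes already required a high value then. None was called by limma at 12 against 5 days (4 at an unadjusted p under 0.05, all higher). Of the 17, 13 were below background on all 12-day arrays and 14 on all 5-day arrays, which leaves most without a size there. In each comparison with 60 days 16 rose, a count that the filter in part set in advance. The share of all genes tested that rose was 12.3% against 12 days and 17.2% against 5 days. Their array medians ran from -6.22 to -6.02 at 5 days, -6.02 to -5.31 at 12 days and -2.46 to -1.49 at 60 days. Gsg1, a germ cell protein, was at least 79.1-fold higher at 60 than at 12 days, Smcp, of the sperm mitochondrial capsule, at least 67.7-fold, Odf1, of the outer dense fibres of the tail, at least 14.1-fold, and Tnp1, the nuclear transition protein, rose by 6.07 ± 0.63. At 12 and at 5 days Gsg1, Smcp and Odf1 were below background on all arrays, as was Piwil1.

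Of 9 spermatogonial genes that passed the filter, 4 rose and 1 fell at 12 against 5 days, 3 rose at 60 against 12 days, and 6 rose and 1 fell at 60 against 5 days. The shares called in either direction were 55.6%, 33.3% and 77.8%, beside 12.4%, 25.3% and 35.3% of all genes tested. Taf7l, a germ cell transcription factor, rose by 5.91 ± 0.42 at 12 against 5 days, and Sohlh1, which drives spermatogonial differentiation, by 3.48 ± 0.43. The array medians ran from -4.14 to -2.11 at 5 days, -0.79 to -0.40 at 12 days and -1.34 to -0.38 at 60 days. On the spike-in scale the calls at 12 against 5 days were 6 of 18 spermatocyte, none of 17 spermatid and 2 of 9 spermatogonial genes, of which 1 rose and 1 fell. The spermatocyte median was then 1.69 and the spermatid median -1.17. The part of germ cells in the levels of the 8 genes was not tested.

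Other cell types moved as well. Among all genes tested, 6.08%, 12.3% and 17.2% rose in the 3 comparisons, and 6.35%, 13% and 18.1% fell. Of 19 Sertoli genes 13 rose at 12 against 5 days and 13 at 60 against 5 days, among them Cst12, an epididymal and Sertoli cystatin (3.36 ± 0.40 and 7.10 ± 0.40), and Tf, transferrin (2.88 ± 0.31 and 4.34 ± 0.31). None of the 19 was called on the spike-in scale at 12 against 5 days, and 8 rose at 60 against 5 days. Of 12 genes of peritubular myoid cells and fibroblasts, 5 fell at 12 against 5 days, 7 at 60 against 12 days and 9 at 60 against 5 days, and Pdgfra, a growth factor receptor of mesenchymal cells, fell by 7.56 in the last. The array medians of that list ran from 5.10 to 5.35 at 5 days, 3.69 to 4.36 at 12 days and 0.06 to 1.82 at 60 days. Of 7 Leydig, 9 macrophage and 6 endothelial genes, 4, 5 and 3 fell at 60 against 5 days, and 1 of each list rose. Among those that fell were Cyp17a1 (by 3.88), Lyz2 (by 3.68) and Ramp2 (by 3.65). These are examples of the falls only. The largest called changes in that comparison were those of Hsd17b3 in the Leydig list and Cdh5 in the endothelial list. At 60 against 12 days 3 of the macrophage genes rose and none fell. The 1 red cell gene that passed the filter, Alas2, fell by 1.43 at 12 against 5 days and rose by 4.27 ± 0.39 at 60 against 5 days. Hbb and Slc4a1 were on the array and did not pass the filter, so the red cell list rests on Alas2 alone.

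**Figure D5:**
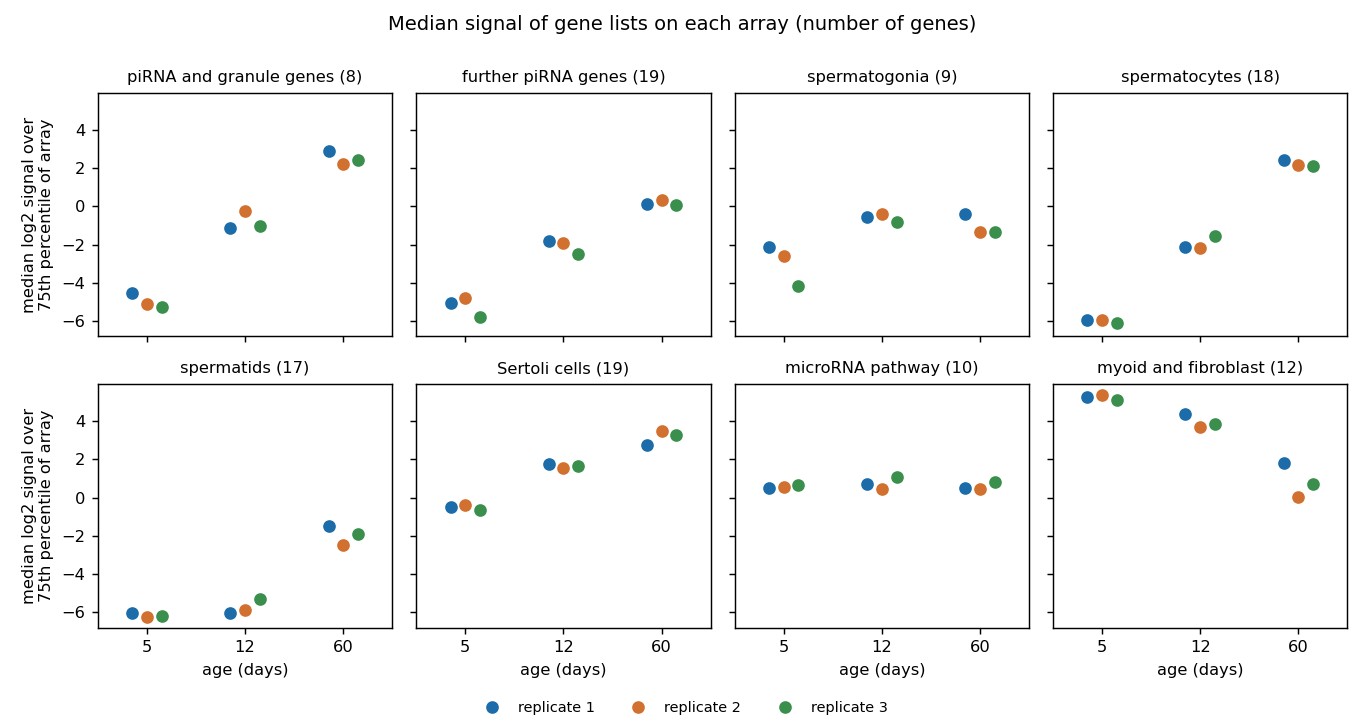
Median log2 signal over the 75th percentile of the array (vertical axis) of each gene list on each of the 9 arrays, by age in days, with a colour for each replicate and the number of genes in brackets. The medians of the 8 piRNA and granule genes lie at -5.23 to -4.55 at 5 days, -1.11 to -0.25 at 12 days and 2.21 to 2.88 at 60 days, the spermatids reach -1.49 at most, and the myoid and fibroblast list runs the other way.

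The genes whose pattern over the 9 arrays lay nearest to each of the 8 were found by the root mean square difference between log2 levels after each gene's own mean was taken away, over 11569 genes with a current symbol. Smaller values mean more alike. Nearest to Ddx4 were Hormad1 (0.30), Stk31 (0.44) and Sycp2 (0.53), and nearest to Mael were Hormad1 (0.36), Sycp2 (0.52) and Sycp3 (0.59). Hormad1, Sycp2 and Sycp3 are proteins of the meiotic chromosome axis. Nearest to Gpat2 were Prss45 (0.28), Smc1b (0.33), the meiotic cohesin subunit, and Spdya (0.37), which binds cyclin-dependent kinases at the telomeres of meiotic chromosomes.

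Piwil1 had Odf1 (0.29), Tnni3 (0.36), a troponin, and Ankrd36 (0.39) nearest to it. Piwil2 had Gsto2 (0.40), Ptpn20 (0.42) and Bcas1 (0.43). Tdrd1 had Dnah2 (0.20), an axonemal dynein, Topaz1 (0.23), a germ cell protein needed for male meiosis, and Cubn (0.36). Mov10l1 had Crtac1 (0.37), Fam209 (0.48) and Asz1 (0.49), the last a granule gene. Tdrd7 had Nherf4 (0.15), Inhca (0.20) and Fabp3 (0.21), a fatty acid binding protein. All 24 values come from the same 9 arrays and describe those arrays, and a small distance also arises between genes that are below background together, as Piwil1 and Odf1 are on the 6 younger arrays.

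Promoters of 7 of the 8 genes were in the RefSeq table of the GRCr8 build, which gives 250 bases before and 50 after each gene start, and they are described because all 8 genes had their highest levels at 60 days. In the sequences below, capitals mark CG pairs, the sites at which rat DNA can be methylated. The window of Ddx4 is shown for its 32 CG pairs, the most of the 7, that of Gpat2 for its 3 pairs, the fewest, and that of Mael for its intermediate 22. The median over 33469 promoters was 7 pairs.
Ddx4, minus strand of chr2:46015902-46016201: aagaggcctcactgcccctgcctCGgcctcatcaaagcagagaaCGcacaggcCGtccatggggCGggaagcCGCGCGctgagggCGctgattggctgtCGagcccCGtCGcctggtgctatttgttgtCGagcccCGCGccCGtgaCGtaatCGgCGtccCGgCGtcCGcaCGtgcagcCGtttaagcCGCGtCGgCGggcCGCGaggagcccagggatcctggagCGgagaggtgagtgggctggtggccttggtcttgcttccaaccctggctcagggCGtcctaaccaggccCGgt
Mael, minus strand of chr13:81029574-81029873: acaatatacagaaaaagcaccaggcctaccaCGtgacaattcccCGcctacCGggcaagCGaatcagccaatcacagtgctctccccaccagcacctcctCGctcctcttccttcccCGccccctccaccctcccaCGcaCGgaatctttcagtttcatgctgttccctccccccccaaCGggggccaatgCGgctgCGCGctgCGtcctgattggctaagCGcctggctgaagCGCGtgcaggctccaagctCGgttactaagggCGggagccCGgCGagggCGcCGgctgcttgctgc
Gpat2, plus strand of chr3:135101552-135101851: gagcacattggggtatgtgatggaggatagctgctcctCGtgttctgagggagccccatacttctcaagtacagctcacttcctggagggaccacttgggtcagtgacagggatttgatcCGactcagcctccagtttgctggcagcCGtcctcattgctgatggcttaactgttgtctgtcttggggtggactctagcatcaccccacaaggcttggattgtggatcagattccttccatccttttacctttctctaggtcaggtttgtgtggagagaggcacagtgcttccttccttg
The other windows held 22 pairs in Piwil1, 26 in Tdrd1, 20 in Tdrd7 and 18 in Mov10l1. On the log2 scale, Gpat2, with the fewest CG pairs, rose at 12 against 5 days by 4.39 ± 0.36. Ddx4, with the most, rose by at least 2.89 (7.41-fold), and its fitted change from below background was 4.75 ± 0.37. A bound and a fitted change cannot be ranked against each other. Whether CG pairs go with the changes of the genes was not tested.

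Short motifs were counted on both strands of the same windows. AACNG, a core read by Myb proteins, was in all 7 windows and in 81.4% of all promoters. CCAAT was in 6 of the 7, all but Tdrd7, and in 37.5% of all promoters. CACGTG, an E-box that reads the same on both strands and holds a CG pair, was chosen after the windows were seen and lay in those of Ddx4, Mael, Piwil1, Tdrd1 and Mov10l1, against 6.42% of all promoters. TCCCGC, a letter string known from E2F sites and chosen in the same way, was in Ddx4, Mael, Piwil1 and Tdrd1, against 18.7% of all promoters. The shares over all promoters are not matched for CG content, and a match is a description of letters. Mybl1, a Myb gene that regulates pachytene piRNA loci in the mouse, is in the list of further piRNA genes and is named here after its values were seen. It was below background at 5 days and at least 2.39-fold higher at 60 than at 5 days (adjusted p = 0.000498).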

How the data were processed

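Per the labels, total RNA of 9 samples was extracted with RNeasy columns, primed with oligo-dT, labelled with Cy3 and hybridised to a rat 4x44k oligonucleotide array. Per the file headers, spots were read with Feature Extraction 9.5.3.1 (replicate 1) or 10.5.1.1 (replicates 2 and 3). The deposited scans give each spot's processed signal, a background-subtracted intensity, without scaling between arrays. The deposited table of the authors holds log2 values, which equal the log2 processed signal minus 1 constant per array within 0.01 for 99.5% to 99.8% of probes. It served as an alternative.

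From the scans, control spots and 254 probes with a quality failure were left out, repeated spots were averaged, and each array's log2 signals were set against its own 75th percentile (148 to 437 intensity units). The filter kept 26599 probes that at least 2 of 3 arrays of some age measured well above background, and the brightest probe stood for a gene. RefSeq accessions named 11013 probes, current symbols 5633 and older symbols 3843, and the name in the file was kept for 20523. With R 4.3.3 and limma 3.58.1, the 9 arrays were fitted together with 1 mean for each age (prior degrees of freedom 4.66, residual 6), using 2-sided moderated tests and Benjamini-Hochberg adjustment over the 22445 genes. The number of arrays limits the precision, and so does background for dim probes. Tables and plots were made with Python 3.11.15, pandas 2.3.3, numpy 2.4.6, scipy 1.17.1 and matplotlib 3.10.9.

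Per the file headers a replicate number marks a slide. After the age means were taken away, 9 pairs of arrays with the same number had correlations of 0.18 to 0.60. The 18 pairs with different numbers had -0.51 to 0.09. Deviations from an age mean cancel out within that age, so positive values of the first kind bring negative ones of the second. Arrays of 1 number thus shared something beyond age. Replicate 1 also differed from replicates 2 and 3 in scanner model and software, so slide, scanner and preparation cannot be told apart. The 8 genes and the gene lists were chosen with earlier results of these data known. The text names all 8 genes, up to 6 genes of each pathway list and up to 4 of each cell list (called genes of the largest change at 60 against 5 days first, then the brightest), and the 3 nearest genes of each of the 8. Alternatives were other scalings, background corrections, filters, probes and subsets of arrays.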

Additional observations from a re-analysis of the deposited data

How the results depend on the processing

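At 60 against 5 days all 8 genes were called under every scaling, filter, probe rule and subset of arrays tried, except Tdrd7 on the spike-in scale, the genes removed by a filter, and normexp background correction. Over all settings the 195 fold changes of a comparison kept their side of the threshold in 173, 184 and 188 cases at 12 against 5, 60 against 12 and 60 against 5 days, and no called change turned its sign. Signal over background limits Piwil1, Tdrd1, Ddx4 and Mov10l1 at the younger ages, where sizes are bounds.

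On the spike-in scale 3 of the 8 genes and 4 of the 37 further piRNA and granule genes were called at 12 against 5 days, and 17 of the 37 at 60 against 5 days (main values 6, 11 and 26). Calls over all genes were then 3014 at 60 against 12 days and 4135 at 60 against 5 days, and the split at 12 against 5 days was 93 higher and 2135 lower, where it was 1365 and 1426 in the main analysis. At 60 against 12 days it was 2617 higher and 397 lower against 2751 and 2927, and at 60 against 5 days 1673 and 2462 against 3862 and 4068. When a probe had to be measured on each of the 9 arrays, 3 of the 8 genes were left to test, of which 2, 3 and 3 were called in the 3 comparisons. This left 4, 4 and 8 calls among the further genes and 1521, 3239 and 4471 over all genes.

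Normexp on replicates 1 and 3, whose files hold the mean signal, called 0, 0 and 2 of the 8 genes, 0, 0 and 1 of the further genes and 4, 2 and 223 of all genes. Spots of extreme local background moved its estimates on replicate 3. Without the 41 probes whose local background passed 200, a choice made after seeing the data, it called 2, 7 and 8 of the 8 genes, 3, 10 and 14 of the further genes and 791, 2305 and 3920 of all genes.

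Leaving out 1 replicate number or 1 array gave 3 to 6, 7 to 8 and always 8 calls among the 8 genes, 5 to 11, 14 to 20 and 22 to 26 among the further genes, and 863 to 3080, 2773 to 5700 and 4905 to 7975 over all genes. Without replicate 2 the calls fell to 3 of the 8 genes, 5 further genes and 863 of all genes at 12 against 5 days, and to 14 further genes and 2773 of all genes at 60 against 12 days. Without replicate 3, 1531 of all genes and 7 further genes were called at 12 against 5 days and 3550 of all genes at 60 against 12 days, and without replicate 1, 1562 of all genes and 4 of the 8 at 12 against 5 days. With the replicate number as a block, which pairs the arrays by slide, 6, 8 and 8 of the 8 genes and 3962, 7671 and 9972 of all genes were called. Array weights called Tdrd7 at 12 against 5 days (adjusted p = 0.0487).

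The change of Piwil1 minus Piwil2 ran from -2.76 to -2.14 at 12 against 5 days, 1.71 to 2.88 at 60 against 12 days and -0.43 to 0.33 at 60 against 5 days when 1 replicate was left out. With signals below background at the lowest measurable value, a choice made after seeing the data, it was 0.47 at 60 against 12 days and -1.95 at 60 against 5 days. The cause of the changes with scaling was not tested.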
